A study of Mus musculus with 36 samples.

Results

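The genes examined were the Myc, Max and Mxd network, a family of transcription factors that share a basic helix-loop-helix zipper and mostly meet at one partner, Max. They were taken as the rows of the deposited expression table that carry the symbols Myc, Mycn, Max, Mxd1, Mxd3, Mxd4, Mxi1, Mnt, Mlx and Mga, and all 10 were found among the 12762 genes of that table. The cells were B3, a mouse pre-B cell line in which the transcription factor Ikaros was switched on from a retrovirus, and messenger RNA was sequenced from 36 libraries in 12 groups of 3. The control line carried an MSCV retrovirus with ERt2-IRES-GFP, and the Ikaros line carried the same vector with haemagglutinin-tagged Ikaros fused to ERt2, the hormone-binding domain of the estrogen receptor that keeps the fusion protein inactive until 4-hydroxytamoxifen (4-OHT) is added. Both lines were collected at 0, 2, 6, 12, 18 and 24 h, and 4-OHT at 0.5 uM is given in the labels of all libraries, whereas the study's methods describe the 0 h cells as collected without the drug, so 0 h is treated here as the uninduced state. Each line is a GFP-sorted pool of transduced cells from one cell line, and the fusion is expressed from a retroviral vector. The labels number the 3 libraries of every group by batch (1, 2 and 4 at 0 h, and 1, 3 and 4 at all later times). These are called culture batches here, since the study repeated its time course in batches. Its methods describe the 0 h cells as obtained separately, so a number shared by 0 h and later times need not mean the same culture.

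As background, Myc and Mycn activate genes for growth, ribosome assembly and metabolism when paired with Max on the E-box sequence. The Mxd proteins, Mxi1 and Mnt pair with Max on the same sequence and recruit Sin3 or NCoR corepressors, so the balance of the Myc and Mxd arms is read as a switch between proliferation and differentiation, and Mga and Mlx extend the network as a further Max partner and as a Max-like protein. In pre-B cells Myc sustains the cycling stage that follows pre-B cell receptor signalling, and Ikaros is known for ending that stage.

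Promoter windows in RefSeq coordinates of GRCm38.p6 (250 bases before to 50 bases after the annotated start, 5′ to 3′ on the strand of the gene) matched 9 of the 10 members in 11 windows. No window was listed for Myc. Capitals mark 2 motifs searched on both strands, CACGTG, the E-box bound by Max dimers, which reads the same on either strand, and GGGAA, the core bound by Ikaros, which reads TTCCC on the opposite strand. The motifs can share at most their end letters and did not overlap in these windows. CACGTG was found in 4 of the 11 windows, against 7.15% of 32851 promoter windows, and GGGAA in 6 of 11, against 62.7% of those windows. The windows of the members with the largest differences are shown, first the 2 repressor genes that were higher in Ikaros cells at 24 h by the widest margins and then the 2 members other than Myc that were lower.
Mxd4, chr5:34187661-34187960, minus strand: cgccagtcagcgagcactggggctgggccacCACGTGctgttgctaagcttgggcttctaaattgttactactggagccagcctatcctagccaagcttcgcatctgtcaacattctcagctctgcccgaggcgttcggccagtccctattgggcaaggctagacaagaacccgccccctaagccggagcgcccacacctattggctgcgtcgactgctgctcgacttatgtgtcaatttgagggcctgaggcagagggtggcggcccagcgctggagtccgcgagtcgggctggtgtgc
Mxd1, chr6:86669110-86669409, minus strand: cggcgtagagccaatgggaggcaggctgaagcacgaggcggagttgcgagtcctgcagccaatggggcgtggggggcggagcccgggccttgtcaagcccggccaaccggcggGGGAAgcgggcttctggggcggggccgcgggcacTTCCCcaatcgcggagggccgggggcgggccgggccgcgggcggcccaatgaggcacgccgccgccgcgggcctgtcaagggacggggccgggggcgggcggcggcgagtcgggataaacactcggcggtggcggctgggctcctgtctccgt
Mycn, chr12:12941787-12942086, minus strand: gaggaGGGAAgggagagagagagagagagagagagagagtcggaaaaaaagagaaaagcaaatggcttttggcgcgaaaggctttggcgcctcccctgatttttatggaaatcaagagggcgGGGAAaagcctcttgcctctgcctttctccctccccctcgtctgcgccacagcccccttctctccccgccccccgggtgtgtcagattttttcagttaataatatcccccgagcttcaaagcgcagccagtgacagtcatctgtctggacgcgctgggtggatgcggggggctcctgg
Mga, chr2:119896978-119897277, plus strand: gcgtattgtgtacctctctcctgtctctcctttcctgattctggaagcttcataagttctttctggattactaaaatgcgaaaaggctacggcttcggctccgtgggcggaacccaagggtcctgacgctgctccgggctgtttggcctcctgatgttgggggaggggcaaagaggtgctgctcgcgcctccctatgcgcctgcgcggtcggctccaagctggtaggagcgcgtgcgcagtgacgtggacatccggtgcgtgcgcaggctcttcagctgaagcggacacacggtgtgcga
The Mxd4 window held 1 CACGTG, starting 219 bases before the start, and no GGGAA. Mxd1 held 2 GGGAA, at 137 and 103 bases before the start, and Mycn held 2, at 245 and 128 bases before it. Neither motif was found in the Mga window. The E-boxes of the other members lay 3 bases before the start in Max, 40 in Mlx and 123 in Mnt. A match describes these letters in this window and was not tested for binding.

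The values are log2 expression after cqn, which corrects for library size, GC content and gene length, and ComBat, which removes differences between library preparations, with a constant shift that sets the lowest value of the table to 1. A difference of 1 is therefore a factor of 2 in level. Library medians lay between 11.70 and 11.73 and no read counts or depths were used, so the depth behind each value is unknown. Ikzf1, the gene of Ikaros, averaged 14.28 to 14.70 in the control groups and 19.89 to 20.71 in the Ikaros groups, 0 h included. All 12 pre-B cell markers on the list were in the table, and none of 6 T cell or 4 stromal markers was. Of 6 myeloid markers 2 were (Lyz2 and Itgam), with a summed level between 6.01 and 8.74 in control libraries and between 7.82 and 10.03 in Ikaros libraries, and of 4 erythroid markers 2 were (Hbb-b1 and Klf1), with a summed level of 7.50 to 8.96 and 6.94 to 8.76. At 24 h Itgam was higher (4.24, adjusted p = 1.39e-07) and Lyz2 lower (-2.94, adjusted p = 4.96e-05) in Ikaros cells, after Lyz2 was higher by 2.94 at 0 h. The other myeloid markers on the list, Csf1r, Mpo, Elane and S100a8, were not in the table. The part of the 2 myeloid genes in the results was not tested. In bulk RNA, fewer cells that express a gene and less RNA per cell cannot be told apart, and p-values measure the spread between these libraries.

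Before induction 1 member, Mycn, was called between the lines. The activator Myc stood highest on the length-corrected log2 scale in control cells at 0 h (mean 16.47 ± 0.14, SD, n = 3), in the upper part of all genes (98th percentile of that group), and Max came next (14.72 ± 0.09). Mnt (13.05 ± 0.15), Mxd4 (12.95 ± 0.59), Mycn (12.17 ± 0.34) and Mga (12.05 ± 0.04) followed, and the ranges of neighbours among these 4 overlapped. Mlx (11.75 ± 0.08), Mxd3 (11.59 ± 0.04), Mxi1 (11.39 ± 0.11) and Mxd1 (9.93 ± 0.09) closed the order, each with a range apart from that of its neighbour. At 0 h only 1 of the 10 members, Mycn, differed between the lines by limma at an adjusted p under 0.05, where 8.33% of all genes did. The other members differed by -0.24 (Mlx) to 0.42 (Mxd4) on the log2 scale, and the Ikaros libraries of Mlx and Mga also lay below the control libraries without overlap. Neither difference was called (limma, adjusted p = 0.3 and 0.478). How many of all genes lie apart in this way was not counted, at 0 h or at the later times.

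After induction the members called between the lines, in either direction, numbered 4 of 10 at 2 h, where 19.1% of all genes were called, and 6 at 6 h, where 37.3% were. The 12 h libraries had 8 members called (45.8% of all genes), those of 18 h had 7 (58.2%) and those of 24 h had 8 (62.9%). Fewer members, 3, were called at 6 h in a fit of the 6 h groups alone, which called 16.8% of all genes, and such fits also lost Mxi1 at 2 h, Mxd3 at 12 h and Mlx at 12 h and 24 h. At 2 h the 4 were Mxd4 and Mxi1, higher in Ikaros cells (9.18% of all genes were higher), and Myc and Mycn, lower (9.88% were lower). Tested as a change of the difference from 0 h, only Myc was called at 2 h (-1.56, limma, adjusted p = 0.000141), where 3.1% of all genes were. Mxd4 (0.39, adjusted p = 0.722), Mxi1 (0.39, adjusted p = 0.342) and Mycn (1.64, adjusted p = 0.311) were not. At 6 h that test called Mxi1 upwards (0.65) and Myc downwards (-1.18), where 15.9% of all genes were called. Between the lines at 24 h 5 were higher (31.0% of all genes), namely Mxd1, Mxd3, Mxd4, Mxi1 and Mlx, and 3 were lower (31.9%), namely Myc, Mycn and Mga. The median difference over the 10 members at 24 h was 0.40, and over all genes -0.01.

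**Figure D1:**
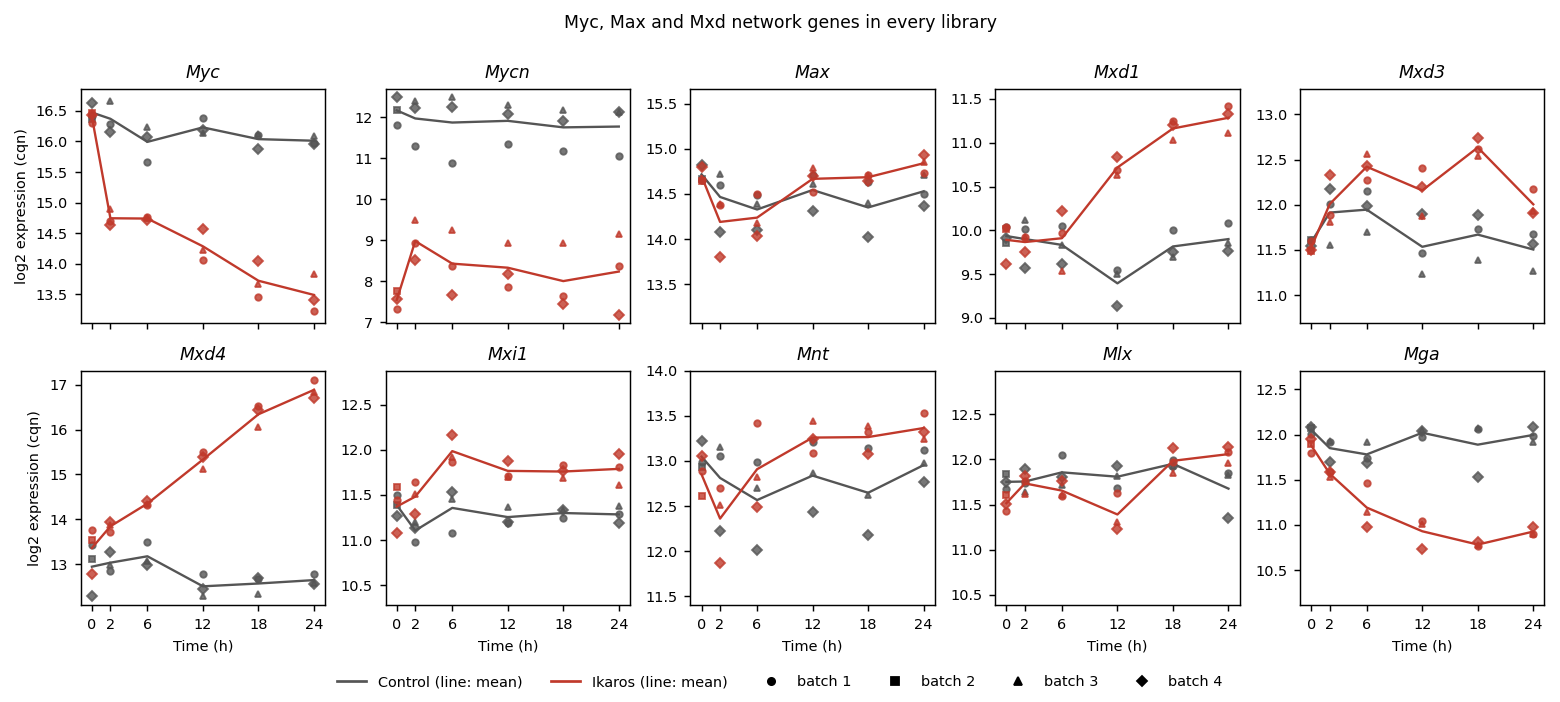
Log2 expression (cqn scale, vertical axis, each panel with its own range) of the 10 network genes against time in hours, with 1 point per library (shape, culture batch) and lines through the means of 3 libraries for control (grey) and Ikaros (red) cells. Myc lies near 16 in both lines at 0 h and near 13.5 in Ikaros cells at 24 h, Mxd4 climbs to near 17, and Mycn is lower in Ikaros cells in every batch and at every time.

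Myc (chr15:61985391-61990374, plus strand, GRCm38, as for the positions that follow), the activating partner, was lower in Ikaros cells from 2 h on. In control cells its log2 level was 16.41, 16.38 and 16.64 at 0 h and 15.98, 16.09 and 15.96 at 24 h, and no control library lay below 15.67. In Ikaros cells it was 16.30, 16.47 and 16.44 at 0 h, 14.69, 14.90 and 14.64 at 2 h, and 14.76, 14.74 and 14.71 at 6 h. The Ikaros values therefore overlapped the control values at 0 h and lay below them in all 3 batches from 2 h onwards. They were 14.06, 14.23 and 14.57 at 12 h, 13.45, 13.66 and 14.05 at 18 h, and 13.22, 13.83 and 13.41 at 24 h.

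The difference in Myc was -0.07 at 0 h (limma, adjusted p = 0.894), -1.63 ± 0.17 (SE) at 2 h (adjusted p = 4.97e-08) and -1.25 ± 0.17 at 6 h (adjusted p = 1.48e-06), when the control level was itself at its lowest mean (15.99). It was then -1.95 at 12 h, -2.32 at 18 h and -2.52 ± 0.17 at 24 h (95% confidence interval -2.87 to -2.18, adjusted p = 5.99e-13), which is a level 0.174 times that of control cells. Most of the 24 h difference was thus already there at 2 h, and the further change from 2 h to 24 h, tested as a change of the difference, was -0.90 ± 0.24 (adjusted p = 0.00279). Within single batches the difference ran from -1.76 to -1.52 at 2 h and from -2.76 to -2.26 at 24 h. Among all genes of its group, Myc went from the 98th percentile in Ikaros cells at 0 h to the 79.1st at 24 h, and it stayed at or above the 97.3rd in control cells. Every Myc call from 2 h on was kept under every alternative run, including each fit without 1 library.

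Mycn (chr12:12936093-12941914, minus strand), the second activator of the family, followed another course, since it was low in the Ikaros line before induction. Its control levels at 0 h were 11.82, 12.19 and 12.50, and the Ikaros levels were 7.31, 7.75 and 7.56. The groups lay far apart, with a difference of -4.63 ± 0.51 (adjusted p = 2.7e-07), 0.0403 times the control level. The difference was -2.99 ± 0.51 at 2 h (adjusted p = 9.58e-05), lay between -3.75 and -3.45 over the following 3 times, and ended at -3.54 ± 0.51 (24 h, adjusted p = 9.33e-07). It had thus no called change after 0 h (change from 0 h to 24 h 1.09 ± 0.72, 95% confidence interval -0.38 to 2.57, adjusted p = 0.219, and adjusted p = 0.418 by a moderated F test over the 5 later times).

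The level of Mycn also differed between culture batches. Control cells of batch 1 ran from 10.88 to 11.35 over the 5 later times, below batches 3 (12.13 to 12.49) and 4 (11.91 to 12.25). In Ikaros cells batch 3 was the highest (8.92 to 9.49), against 7.64 to 8.94 in batch 1 and 7.17 to 8.51 in batch 4. The lines did not overlap in any batch, and the within-batch difference at 24 h was -2.68, -2.97 and -4.97 in batches 1, 3 and 4. Inside the Ikaros line Mycn was higher at 2 h than at 0 h by 1.44 ± 0.51 (adjusted p = 0.0469), a call that was lost without any single library of the 2 groups (adjusted p = 0.0686 to 0.139). On the length-corrected scale Mycn made up 3.99 to 5.39% of the summed Myc and Mycn level in control libraries at 0 h and 0.197 to 0.236% in Ikaros libraries.

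Max (chr12:76937269-76962201, minus strand), the shared partner of both arms, showed no called difference between the lines at any time. At 24 h it was 14.50, 14.71 and 14.37 in control cells and 14.73, 14.85 and 14.94 in Ikaros cells, so the Ikaros values lay above the control values. The difference was 0.31 ± 0.17 (95% confidence interval -0.04 to 0.67, adjusted p = 0.119), and the largest over the 6 times was 0.34 ± 0.17 at 18 h (adjusted p = 0.0983, or 0.48 and 0.0324 without the batch 1 control library of 18 h). At 2 h it was -0.28 (adjusted p = 0.303). Its change from 2 h to 24 h was 0.59 ± 0.24 (adjusted p = 0.0498), a call lost without the control libraries of batch 1 or 3 at 2 h or batch 1 or 4 at 24 h, the batch 4 Ikaros library of 2 h, or any Ikaros library of 24 h (0.39 to 0.64, adjusted p up to 0.186). Early values of Max were lower. In Ikaros cells it was below its own 0 h level by 0.51 at 2 h (change -0.51 ± 0.17, adjusted p = 0.0402) and by 0.46 at 6 h (change -0.46 ± 0.17, adjusted p = 0.0423), and the control means at those times were 14.47 and 14.33 after 14.72 at 0 h. Both Ikaros calls were lost without any of the 3 Ikaros libraries of 0 h, the first also without the batch 4 library of 2 h (adjusted p = 0.331) and the second without the batch 3 or batch 4 library of 6 h (adjusted p up to 0.188).

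Mxd4 (chr5:34173883-34187720, minus strand), a repressor partner known from differentiating cells, had the largest positive difference of the network. Control levels were 13.44, 13.12 and 12.29 at 0 h and 12.79, 12.58 and 12.57 at 24 h. Ikaros levels were 13.75, 13.55 and 12.78 at 0 h, 13.73, 13.87 and 13.94 at 2 h, and 14.32, 14.33 and 14.40 at 6 h. They overlapped the control values at 0 h and lay above all of them from 2 h. Later they were 15.49, 15.12 and 15.39 at 12 h, 16.53, 16.06 and 16.43 at 18 h, and 17.11, 16.83 and 16.71 at 24 h.

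The Mxd4 difference was 0.42 ± 0.23 at 0 h (adjusted p = 0.35), 0.81 ± 0.23 at 2 h (adjusted p = 0.0142), 1.17 at 6 h (adjusted p = 0.000247), 2.82 at 12 h, 3.77 at 18 h and 4.23 ± 0.23 at 24 h (95% confidence interval 3.76 to 4.71, adjusted p = 1.35e-14), 18.8 times the control level. In each batch Ikaros exceeded control at 0 h already, by 0.32, 0.43 and 0.50 in batches 1, 2 and 4. The change of the difference from 0 h was 3.82 ± 0.33 at 24 h (adjusted p = 3.13e-10), and that from 2 h to 24 h was 3.42 ± 0.33 (adjusted p = 2.85e-09), so most of the Mxd4 rise came later than 2 h. The within-batch differences at 24 h were 4.32, 4.24 and 4.14. The 2 h call was lost without the batch 1 control library (0.72, adjusted p = 0.069) and without the batch 4 Ikaros library (0.76, adjusted p = 0.0501). Mxd4 overlaps an annotated antisense gene, Gm42846, and the strand setting of the counting was not given in the sources used here, so reads of the pair may be shared.

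Mxd1 (chr6:86647042-86669161, minus strand), a repressor known for its appearance when cells leave the cycle, rose later. Its control levels at 24 h were 10.08, 9.85 and 9.77 and the Ikaros levels 11.42, 11.11 and 11.32. The lines overlapped at 0, 2 and 6 h, with differences of -0.04, -0.03 and 0.08 (adjusted p = 0.937, 0.92 and 0.746), and lay apart at 12 h and after. The difference was 1.32 ± 0.16 at 12 h (adjusted p = 2.03e-07), when control cells were at their lowest mean (9.39), 1.35 at 18 h and 1.39 ± 0.16 at 24 h (adjusted p = 3.51e-08), 2.61 times the control level. Within the Ikaros line Mxd1 was above its own 0 h level by 0.83 at 12 h and 1.39 at 24 h. Its 24 h differences in batches 1, 3 and 4 were 1.34, 1.26 and 1.56.

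Mxd3 (chr13:55325168-55329823, minus strand), the family member usually found in dividing progenitors, showed a smaller and less even rise. Control levels were 11.74, 11.38 and 11.89 at 18 h and Ikaros levels 12.62, 12.54 and 12.74, which did not overlap. At 24 h control levels were 11.68, 11.26 and 11.57 and Ikaros levels 12.17, 11.93 and 11.91, which were again apart. The difference was 0.47 ± 0.18 at 6 h (adjusted p = 0.0391), 0.62 at 12 h (adjusted p = 0.00574), 0.96 at 18 h (adjusted p = 4.81e-05) and 0.50 ± 0.18 at 24 h (adjusted p = 0.0177), and it was positive in all 3 batches at each of these times. The 18 h call was kept under every alternative run. The 6 h call was lost without the batch 3 or batch 4 library of either line (0.35 to 0.50, adjusted p up to 0.171), the 12 h call without the batch 3 control library (0.47, adjusted p = 0.0537), both in fits of only the groups compared (adjusted p = 0.107 and 0.0803), and the 24 h call without the batch 3 control library (0.38, adjusted p = 0.103) or the batch 1 Ikaros library (0.42, adjusted p = 0.0796). The change of the difference from 0 h to 24 h was 0.56 ± 0.25 (adjusted p = 0.071, and 0.0201 with culture batch as a replicate block).

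Mxi1 (chr19:53310518-53375810, plus strand), a repressor of the same family, was higher in Ikaros cells than in control cells from 2 h on. In Ikaros cells it was 11.45, 11.59 and 11.08 at 0 h, 11.87, 11.92 and 12.17 at 6 h and 11.81, 11.61 and 11.95 at 24 h. In control cells it was 11.50, 11.39 and 11.27 at 0 h, 11.08, 11.45 and 11.54 at 6 h and 11.29, 11.38 and 11.19 at 24 h. The lines overlapped only at 0 h. The difference was 0.63 ± 0.13 at 6 h (adjusted p = 0.000306), 0.51 at 12 h, 0.46 at 18 h and 0.50 ± 0.13 at 24 h (adjusted p = 0.00113), 1.42 times the control level. At 2 h it was 0.38 ± 0.13 (adjusted p = 0.0376), a call that was lost without the control library of batch 1 or 4 or the Ikaros library of batch 1 or 3 (0.30 to 0.39, adjusted p = 0.0564 to 0.16). In fits of only the groups compared the 2 h and 6 h calls were lost (adjusted p = 0.201 and 0.0608). The 2 h levels were 11.64, 11.51 and 11.29 in Ikaros cells and 10.98, 11.20 and 11.14 in control cells. Against its own 0 h level, Mxi1 changed at 2 h by 0.11 in Ikaros cells (limma, adjusted p = 0.561) and by -0.28 in control cells (adjusted p = 0.605). The change of the difference from 0 h to 24 h was 0.52 ± 0.18 (adjusted p = 0.0177), and it lost its call without the batch 4 Ikaros library of 0 h (0.37, adjusted p = 0.0803) or of 24 h (0.44, adjusted p = 0.0582).

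Mnt (chr11:74830920-74845725, plus strand), a widely expressed repressor partner of Max, was called at no time. Its control levels at 18 h were 13.14, 12.62 and 12.18 and its Ikaros levels 13.32, 13.39 and 13.08, which overlapped. The difference there was 0.62 ± 0.28 (adjusted p = 0.0614), 0.0155 with culture batch as a replicate block and 0.0164 without the batch 1 control library (0.86). At 24 h the Ikaros values (13.53, 13.24 and 13.32) lay above the control values (13.12, 12.98 and 12.76), with a difference of 0.41 ± 0.28 (95% confidence interval -0.17 to 0.99, adjusted p = 0.206, and 0.0382 in a fit of the 24 h groups alone). Control libraries of batch 4 were the lowest from 2 h on (12.02 to 12.76).

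**Figure D2:**
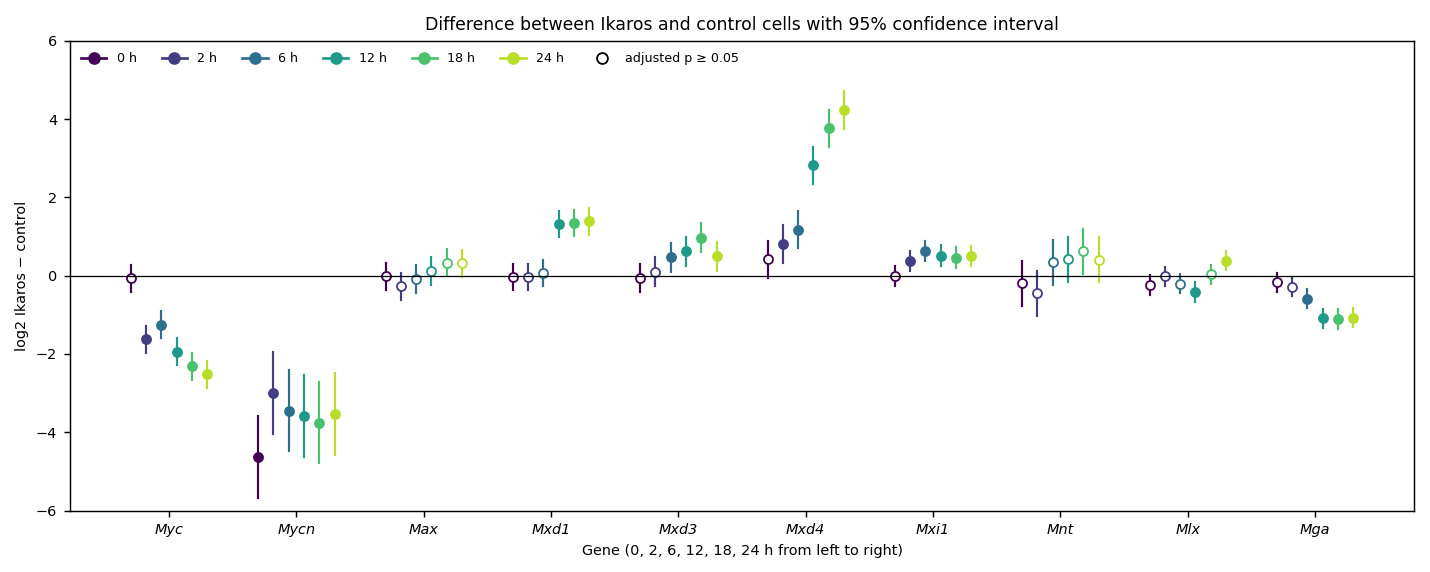
Ikaros minus control differences on the log2 scale (vertical axis) for the 10 genes, with 6 points per gene for 0, 2, 6, 12, 18 and 24 h from left to right and 95% confidence intervals from limma, filled where the adjusted p was under 0.05 and open where it was not. Myc steps down at 2 h, Mycn is low at all times, Mxd4 climbs to 4.23, and the intervals of Max include 0 throughout.

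The remaining 2 members tie the network to other partners. Mlx (chr11:101087277-101092207, plus strand), a Max-like protein that pairs with some Mxd proteins, with Mnt and with the glucose-responsive Mondo factors, differed in both directions. At 12 h it was 11.68, 11.82 and 11.93 in control cells and 11.63, 11.31 and 11.24 in Ikaros cells. At 24 h it was 11.85, 11.83 and 11.35 against 12.08, 11.96 and 12.13. Ikaros cells were thus below control at 12 h (-0.42 ± 0.12, adjusted p = 0.0062) and above it at 24 h (0.38 ± 0.12, adjusted p = 0.00803), with no overlap at either time. They lay below control at 0 h already (-0.24 ± 0.12, limma, adjusted p = 0.3), without overlap. The change of the difference from 0 h to 12 h was not called (-0.18 ± 0.17, adjusted p = 0.462), nor was that within the Ikaros line (-0.13, adjusted p = 0.418). The 24 h difference was 0.23, 0.13 and 0.79 in batches 1, 3 and 4, and without the batch 4 control library it was 0.22 (adjusted p = 0.116). Both calls were lost in fits of only the groups compared (adjusted p = 0.0799 at 12 h and 0.0815 at 24 h). Mlx overlaps the end of Psmc3ip on the opposite strand, as Mxd3 does that of Prelid1, and Mxi1 overlaps 2 annotated genes on the opposite strand, so these values may also hold shared reads. Max and Mxd1 each overlap an uncharacterised annotation on their own strand.

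Mga (chr2:119897228-119969581, plus strand), a large protein with a T-box as well as a Max-binding domain, fell with time. Control levels were 12.01, 12.07 and 12.08 at 0 h and 11.99, 11.92 and 12.08 at 24 h. Ikaros levels were 11.80, 11.89 and 11.95 at 0 h, 11.46, 11.14 and 10.97 at 6 h, 11.05, 11.01 and 10.73 at 12 h and 10.90, 10.90 and 10.98 at 24 h. The Ikaros libraries lay below the control libraries at all 6 times, 0 h included, by little at first. The difference was -0.17 ± 0.12 at 0 h (adjusted p = 0.478), -0.28 at 2 h (adjusted p = 0.0999), -0.59 at 6 h (adjusted p = 0.000319, and 0.0668 in a fit of the 6 h groups alone), -1.09 at 12 h (adjusted p = 2.59e-08), -1.11 at 18 h and -1.07 ± 0.12 at 24 h (adjusted p = 1.27e-08), 0.476 times the control level. Within batches the 24 h difference was -1.09, -1.02 and -1.10.

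Since the lines can differ before induction, the change of each difference from 0 h was tested as well. By a moderated F test over the 5 later times 7 of the 10 members changed (59.8% of all genes did): Myc, Mxd1, Mxd3, Mxd4, Mxi1, Mlx and Mga. At 24 h alone 6 of 10 were called (48.4% of all genes), Mxd3 being the one of the 7 that was not. From 2 h to 24 h, a comparison that uses no 0 h library, 5 were called (47.3%): Mxd4 (3.42), Mxd1 (1.42) and Max (0.59) upwards, and Myc (-0.90) and Mga (-0.79) downwards.

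Each line was also set against its own 0 h libraries, to see which of the lines moved. The Ikaros line had 3 members called at 2 h, namely Myc, Max and Mycn (19.2% of all genes, and 6 members with culture batch as a replicate block, where 29.1% of all genes were called). It had 6 at both 6 h (32.8% of all genes) and 12 h (46.1%), and 7 at both 18 h (54.6%) and 24 h (60.6%). The control line had 0 members called by limma at 2 h (0.0470% of all genes), 6 h (5.10%), 12 h (0.0549%), 18 h (0.478%) and 24 h (0.470%), and 1, 3, 1, 2 and 1 at an unadjusted p under 0.05. Control members moved by -0.54 to 0.36 over all times. With culture batch as a replicate block 3 control members were called at 6 h, namely Myc, Max and Mxd3, in a fit that called 20.3% of all genes there. These comparisons share the 0 h libraries of their line, whose cells were obtained separately by the study's methods. A difference between collections and a change over time therefore cannot be told apart in them. The 24 h changes within the Ikaros line were -2.91 for Myc, 3.52 for Mxd4, 1.39 for Mxd1 and -0.95 for Mga.

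The order of the network was rearranged by 24 h in Ikaros cells. On the length-corrected log2 scale Mxd4 stood first (mean 16.88 ± 0.21, SD, n = 3), above every Max library (14.84 ± 0.10) and every Myc library (13.49 ± 0.31). Myc and Mnt (13.36 ± 0.15) overlapped, Mlx (12.06), Mxd3 (12.00) and Mxi1 (11.79) overlapped with their neighbours in that order, and Mxd1 (11.29), Mga (10.93) and Mycn (8.23 ± 1.00) followed with ranges apart. In control cells at 24 h Myc (16.01 ± 0.07) was still first and Mxd1 (9.90 ± 0.16) last. The log2 ratio of the summed Myc and Mycn level to the summed level of Mxd1, Mxd3, Mxd4, Mxi1 and Mnt puts both arms together, as a description without a test. It was 2.03 ± 0.30 in control and 1.81 ± 0.28 in Ikaros cells at 0 h, whose ranges overlapped, and 1.75 ± 0.18 against -3.58 ± 0.45 at 24 h. In Ikaros libraries it lay between -0.11 and 0.14 at 2 h, where both arms had about the same level, between -0.55 and -0.46 at 6 h and between -1.92 and -1.35 at 12 h. Mxd4 made up 33.0 to 48.8% of the summed repressor level in Ikaros libraries at 0 h and 83.9 to 86.1% at 24 h, against 30.3 to 31.6% in control libraries at 24 h. These are transcript levels, and no protein was measured here.

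**Figure D3:**
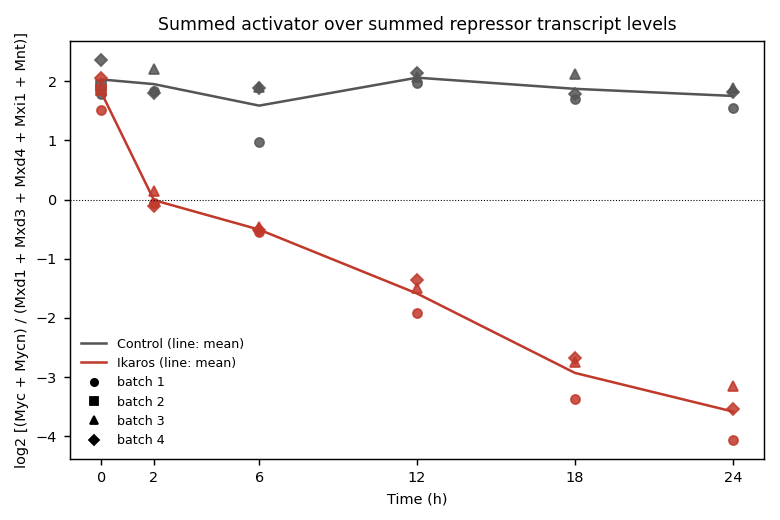
Log2 ratio of the summed level of Myc and Mycn to the summed level of Mxd1, Mxd3, Mxd4, Mxi1 and Mnt (vertical axis) against time in hours, with 1 point per library (shape, culture batch) and lines through the means of 3 libraries. Control libraries stay between 0.97 and 2.36, and Ikaros libraries reach about 0 at 2 h and -4.05 to -3.16 at 24 h.

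Over the 12 group means the members closest to Myc and farthest from it can be described by Pearson's r, where all groups of a line share one culture history and 2 time courses are joined, so that r carries no p. Myc had r = 0.96 with Mga, -0.94 with Mxd4 and -0.20 with Max, and Mxd1 had r = 0.95 with Mxd4. Among 6366 named genes at or above the median level, those most like Myc were Pax7 (0.994), 2410016O06Rik (0.992), Mat2a (0.990), Otud4 (0.989) and Birc6 (0.986), and those least like it were Bptf (-0.986), Peli1 (-0.984) and Cmah (-0.983). Mat2a makes S-adenosylmethionine and is also on the list of Myc-activated genes below.

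Lists of genes around the network were read beside it, all of them chosen with earlier results of these data known. Of 35 genes known from textbooks as activated by Myc, all in the table, 32 were lower (31.9% of all genes) and 2 were higher (31.0%) in Ikaros cells at 24 h, with a median difference of -1.87 against -0.01 over all genes. This list holds Slc7a5, Hk2 and Ldha, whose late fall after Ikaros induction the study already knew from earlier work. The widest negative differences at 24 h were those of Srm, the spermidine synthase (-3.36 ± 0.15, adjusted p = 4.17e-16), Ccnd2, cyclin D2 (-3.25 ± 0.18, adjusted p = 2.31e-14), and Hk2, hexokinase 2 (-3.10 ± 0.15, adjusted p = 6.99e-16). At 0 h these genes differed by -0.33, 0.70 (adjusted p = 0.0141) and 0.25, so the order of their changes over time is another one. The 2 higher genes were Tert, the catalytic subunit of telomerase (1.19 ± 0.31, adjusted p = 0.00176), and Tfrc, the transferrin receptor (0.91 ± 0.16, adjusted p = 2.61e-05), and Ptma, prothymosin alpha, was not called (-0.09). Tert stood low on the scale, with a mean of 8.24 over all libraries against a median gene mean of 11.72. At 2 h, when the Myc difference was -1.63, 4 of the 35 were lower (9.88% of all genes) and 2 higher (9.18%), with a median of -0.06. The number lower was then 16 at 6 h (median -0.27, 19.2% of all genes lower), 28 at 12 h (median -0.87, 22.8%) and 31 at 18 h (median -1.37, 29.2%).

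Of 10 genes known as repressed by Myc, 9 were measured, and at 24 h 6 were higher (31.0% of all genes) and 2 lower (31.9%), with a median of 2.12. The widest positive differences at 24 h were those of Btg2, an antiproliferative factor (3.52 ± 0.38, adjusted p = 6.22e-09), Ccng2, cyclin G2 (3.28 ± 0.23, adjusted p = 1.86e-12), and Cdkn1b, the cell cycle inhibitor p27 (3.14 ± 0.20, adjusted p = 1.89e-13). These already differed at 0 h by 1.19 (adjusted p = 0.0482), 0.69 (adjusted p = 0.0617) and 0.66 (adjusted p = 0.0339). Btg2 stood low on the scale, with means at 24 h of 5.58 ± 0.75 (SD) in control and 9.10 ± 0.09 in Ikaros cells. The lower genes at 24 h were Ndrg1 (-1.41 ± 0.18, adjusted p = 1.97e-07), a stress-responsive gene, and Cdkn1a, the inhibitor p21 (-0.61 ± 0.17, adjusted p = 0.0034). For Ndrg1 the sign had reversed, since limma gave 2.79 at 0 h (adjusted p = 3.81e-11) and 1.57 at 2 h (adjusted p = 4.1e-07). The Cdkn1a values were -0.39 at 0 h (adjusted p = 0.201) and 0.54 at 2 h (adjusted p = 0.0295). This list was already apart at 0 h, with 4 of 9 genes higher in Ikaros cells (4.61% of all genes) and a median of 0.66. The difference at 0 h was -0.07 for Myc and -4.63 for Mycn, and the part of either in this list was not tested.

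**Figure D4:**
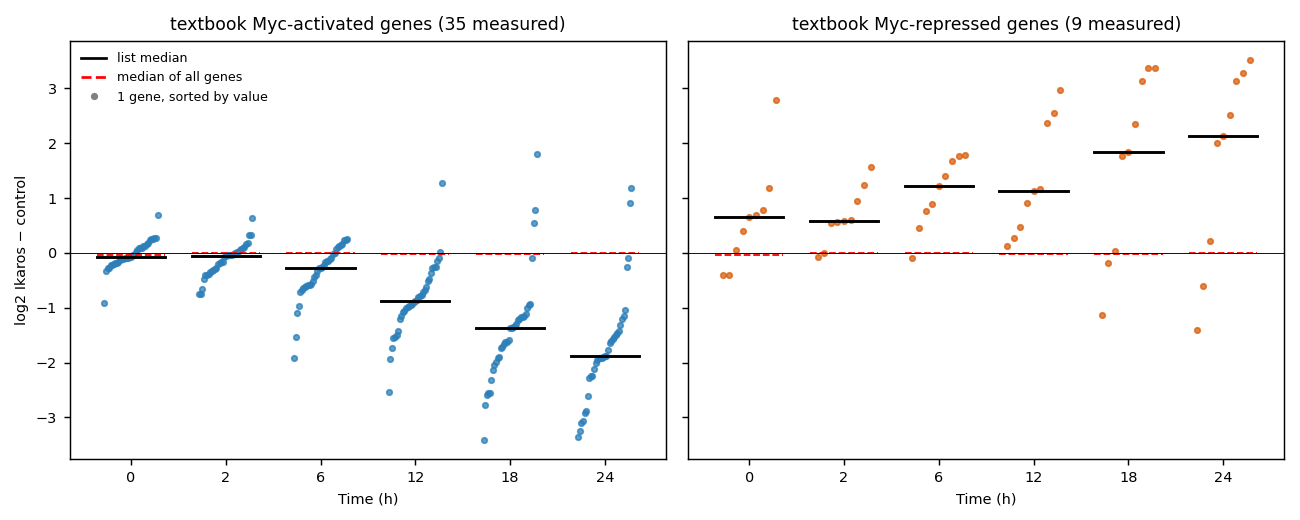
Ikaros minus control differences on the log2 scale (vertical axis) at 6 times for textbook Myc-activated genes (left, 35) and Myc-repressed genes (right, 9), 1 point per gene sorted by value within a time, with the list median (black) and the median of all genes (dashed). The median of the activated list goes from -0.07 at 0 h to -1.87 at 24 h, and that of the repressed list from 0.66 to 2.12.

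Transcripts of the proteins that work with the 2 arms did not move as a block. At 24 h 31.0% of all genes were higher, 31.9% lower and 62.9% called in either direction. The list of Myc partners, mostly coactivators, held 12 genes. Of these 4 were higher, led by Kat5 (1.03 ± 0.20, adjusted p = 8.15e-05), Ep300 (1.01 ± 0.19, adjusted p = 3.28e-05) and Trrap (0.86 ± 0.16, adjusted p = 2.67e-05), which acetylate chromatin or hold such complexes together. Another 6 were lower, led by the acetyltransferase gene Kat2a (-1.96 ± 0.11, adjusted p = 1.19e-14), the ATPase gene Ruvbl2 (-1.43 ± 0.09, adjusted p = 3.63e-13) and Wdr5 (-1.40 ± 0.11, adjusted p = 7.43e-12), a chromatin scaffold that binds Myc. The median over the list was -0.23, and 10 of 12 were called in all.

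Of 8 Sin3 and NCoR partners of the Mxd arm 2 were higher, Sin3b (0.53 ± 0.16, adjusted p = 0.00453) and Hdac1 (0.33 ± 0.09, adjusted p = 0.00133), and 3 were lower, Rbbp7 (-1.14 ± 0.07, adjusted p = 4.14e-13), Hdac2 (-0.56 ± 0.15, adjusted p = 0.00229) and Ncor1 (-0.30 ± 0.06, adjusted p = 0.000159), with a median of -0.17. These 5 of 8 genes are a share close to that of all genes. Of 13 genes that control the stability of Myc protein 3 were higher, Gsk3b, whose kinase marks Myc for destruction (0.83 ± 0.11, adjusted p = 3.09e-07), the kinase gene Pim2 (0.78 ± 0.10, adjusted p = 2.13e-07) and the deubiquitinase gene Usp28 (0.23 ± 0.09, adjusted p = 0.029). Usp28 was already higher at 0 h (0.33, limma, adjusted p = 0.0183), whereas Gsk3b (0.23) and Pim2 (0.09) were not called then. A further 5 were lower, led by Usp36, a nucleolar deubiquitinase (-2.20 ± 0.15, adjusted p = 6.22e-13), Pim3 (-0.98 ± 0.21, adjusted p = 0.000295) and the ubiquitin ligase gene Huwe1 (-0.89 ± 0.12, adjusted p = 2.55e-07). The median over these 13 was -0.06, and the 8 called are again a share close to that of all genes.

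On the Mlx side, Mlxip, which encodes MondoA, was higher in Ikaros cells at 24 h (1.36 ± 0.13, adjusted p = 1.57e-09), from -0.10 at 0 h and -0.11 at 2 h. Its known target Txnip, an inhibitor of glucose uptake, was higher as well (1.58 ± 0.21, adjusted p = 2.87e-07), from 0.34 and 0.10. The other genes on these lists, Mycl, Mlxipl and Arrdc4, were not among the symbols found. The pre-B cell markers had 9 of 12 higher and 2 lower at 24 h, with a median of 1.07. Highest among them were Rag1 (5.19), Blnk (4.14) and Cd79b (2.29), and the 2 lower ones were the surrogate light chain genes Igll1 (-3.96) and Vpreb1 (-3.42).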

How the data were processed

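Stranded messenger RNA libraries were sequenced in paired ends. The authors trimmed reads, aligned them to mm10 with TopHat2 keeping unique hits, assigned them to genes with HTSeq (versions not given in the sources used here), and deposited log2 values after cqn and ComBat over library preparations. ComBat removed variation before testing, so p-values may be too small. The scale's base is not stated and was taken as log2 because cqn builds log2 values. No counts were used, so depth is unknown and no count test or counting interval was made. limma 3.58.1 (R 4.3.3) was run on all 12762 genes together (12 group means, 36 libraries, empirical Bayes, two-sided, Benjamini-Hochberg adjustment over all genes of a contrast, call under 0.05), tested on simulated data. No 2 libraries shared more than 0.384% of values.

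The members and all gene lists were chosen with earlier results of these data known. A gene of the corepressor list is not reported here and was left out of its counts. Named genes are the 10 members, for each list up to 3 called genes with the widest rise and 3 with the widest fall at 24 h, all other network proteins, and the 5 genes most like and 3 least like Myc. Control and Ikaros libraries of a time were paired by the batch number in their labels, taken as a culture batch. Their deviations from group means correlated with a median r of 0.13 over 18 pairs (-0.06 to 0.51, 12 above 0.1). Alternatives were culture batch as a replicate block, a filter at the 25th percentile, quantile normalization, eBayes with trend and robust, only the groups compared, and leaving out each of 36 libraries. Gene positions and overlaps came from GENCODE M21 (GRCm38), promoter windows from RefSeq.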

Additional observations from a re-analysis of the deposited data

Results flagged for a closer look

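For 7 members the Ikaros against control difference was not the same at all times, by a moderated F test of the change of the difference over the 5 times after 0 h (limma, adjusted over all genes). The change from 0 h to 24 h was 3.82 for Mxd4 (F test adjusted p = 7.7e-11), -2.45 for Myc (1.48e-08), 1.43 for Mxd1 (2.47e-07) and -0.90 for Mga (1.24e-05). It was 0.62 for Mlx (adjusted p = 0.00479), 0.56 for Mxd3 (adjusted p = 0.0126) and 0.52 for Mxi1 (adjusted p = 0.0403). With 3 libraries a group, no test for a single outlying library was made.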

How the results depend on the processing

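With culture batch as a replicate block, the members called within the Ikaros line at 2 h rose from 3 to 6 and those within the control line at 6 h from 0 to 3. Apart from those and the Mnt and Mxd3 calls given in the report, the block added the changes from 2 h to 24 h of Mnt (0.86, adjusted p = 0.0206) and Mlx (0.40, adjusted p = 0.0478), and it ended no call. In fits of only the groups compared, which have fewer libraries, 3 members were called at 6 h in place of 6. Of 109 member values, 14 lost their call in those fits and 3 gained one, 1 lost it under quantile normalization (Mycn within the Ikaros line at 2 h, adjusted p = 0.0521), 1 gained it with the filter, and the moderated trend with robust fitting changed none. Leaving out 1 library gave 2 to 4 members called between the lines at 2 h, 1 to 3 within the Ikaros line at 2 h and 0 to 1 within the control line at 6 h. Reversals were of uncalled differences: at 0 h they ran from -0.12 to 0.010 for Myc, -0.072 to 0.034 for Max, -0.12 to 0.095 for Mxd1 and -0.12 to 0.13 for Mxi1, at 2 h from -0.20 to 0.073 for Mxd1, -0.084 to 0.23 for Mxd3 and -0.081 to 0.047 for Mlx, at 6 h from -0.22 to 0.013 for Max and -0.078 to 0.26 for Mxd1, and at 18 h from -0.040 to 0.10 for Mlx. Over all genes, calls between the lines at 2 h went from 2432 to 860 and at 6 h from 4759 to 2150 with only the groups compared, at 0 h from 1063 to 701 with the filter and to 683 without the batch 2 Ikaros library, and within the Ikaros line at 2 h from 2444 to 3720 with the block and to 758 with only the groups compared, and at 6 h from 4182 to 2471. Within the control line at 6 h they went from 651 to 2585 with the block, to 12 with only the groups compared and to between 36 and 1193 without 1 library. Without 1 library, the count within the Ikaros line at 2 h fell to 1065 (without the batch 4 Ikaros library of 2 h), 1439 or 1565 (without the batch 1 or batch 4 Ikaros library of 0 h), and those within the control line ran from 0 to 5 at 2 h (6 with all libraries), 0 to 9 at 12 h (7), 3 to 115 at 18 h (61) and 11 to 41 at 24 h (60), and with only the groups compared limma called 0 at each of these times (1002 to 1861 genes at an unadjusted p under 0.05). The block gave 129 at 18 h and quantile normalization 4 at 12 h. The causes were not tested. Depth is unknown, and 3 libraries a group limit what can be called.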
